A study of Caenorhabditis elegans with 2 samples.

Results

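The ceh genes are the protein-coding homeobox genes of Caenorhabditis elegans whose symbol is ceh- and a number. By that rule, applied to the Ensembl annotation of genome WBcel235, there were 62 of them among 19973 nuclear protein-coding genes once the Hox gene ceh-13 was left out. Peaks of NFYA-1 were mapped by chromatin immunoprecipitation and sequencing (ChIP-seq) in 2 biological replicates, 1 library each, of whole young adult hermaphrodites of strain OP404. All animals carried unc-119(tm4063) on chromosome III and the integrated transgene wgIs404, which expresses NFYA-1 with a GFP-FLAG tag at its C-terminal end and allowed precipitation through GFP. Both replicates thus came from 1 transgenic line. The labels give 1 group and the control library is not analysed here, so the comparisons below set the ceh genes beside the other 19911 nuclear protein-coding genes in the same lists. Because whole worms were used, weak binding in many cells and strong binding in a few cells cannot be told apart.

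A homeobox encodes the homeodomain, a DNA-binding fold whose recognition helix lies in the major groove of DNA. Homeodomain factors are known in the worm for fixing the identity of neurons, pharyngeal cells and muscle during development, and many act in a handful of cells only. NFYA-1 is the worm A subunit of NF-Y, a trimeric complex known for binding the sequence CCAAT in promoters. In C. elegans, NF-Y has been described as a regulator of developmental genes, including Hox genes.

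Each deposited list of peaks and background held 30000 peaks on build ce11, 1 list per replicate and 1 for both replicates pooled. Peaks were ranked in each list by the signal value that the authors deposited, with rank 1 the highest. The sources used here do not give the scale of that value, and it differed between the lists, whose median was 17.5 in the pooled list, 7.51 in replicate 1 and 11.7 in replicate 2, so levels are compared only within a list. A peak was assigned to a gene when its summit lay in the gene or in a start window, which began 1000 bp before the start of a coding transcript and ended 200 bp after it. A pooled peak is described as seen in both replicates when a peak of each replicate list overlapped it by 1 bp or more. A list of this fixed length reaches down into background: 58.7% of all other genes had a pooled peak.

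The sequences below are 101 bp centred on pooled summits, read from the WBcel235 genome on the strand of the gene. The first 3 are the windows of ceh-79, whose peak ranked highest of all ceh genes, and of ceh-10 and ceh-40, the genes whose best peak was also among the 5000 highest of each replicate. The ceh-40 window is 82 bp, since bases past the transcript start are left out. None of the 3 holds CCAAT on either strand.

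ceh-79, V:13304421-13304521, plus strand: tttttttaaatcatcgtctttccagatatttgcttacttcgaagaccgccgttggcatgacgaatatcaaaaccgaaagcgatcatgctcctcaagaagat

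ceh-10, III:5800812-5800912, plus strand: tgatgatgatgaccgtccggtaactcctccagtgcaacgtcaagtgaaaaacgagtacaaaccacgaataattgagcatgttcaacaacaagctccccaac

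ceh-40, X:12320778-12320859, minus strand: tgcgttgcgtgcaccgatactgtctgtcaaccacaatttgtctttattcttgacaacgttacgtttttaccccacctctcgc

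The other 6 are the ceh windows that held CCAAT within 50 bp of a summit seen in both replicates. Capitals mark CCAAT, or ATTGG where it lay on the opposite strand. All 6 summits were in coding exons, and every CCAAT lay toward an edge of its window, 29 to 44 bp from the summit.

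ceh-99, II:12523310-12523410, plus strand, pooled rank 1397: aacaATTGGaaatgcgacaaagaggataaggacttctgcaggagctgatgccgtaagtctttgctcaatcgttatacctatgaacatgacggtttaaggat

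ceh-32, V:11705183-11705283, minus strand, pooled rank 5938: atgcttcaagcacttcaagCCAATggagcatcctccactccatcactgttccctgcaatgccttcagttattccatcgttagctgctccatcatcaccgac

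ceh-32, V:11702347-11702447, minus strand, pooled rank 25571: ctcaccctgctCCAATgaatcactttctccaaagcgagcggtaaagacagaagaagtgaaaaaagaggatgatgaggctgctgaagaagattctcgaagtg

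ceh-58, II:10369098-10369198, minus strand, pooled rank 7151: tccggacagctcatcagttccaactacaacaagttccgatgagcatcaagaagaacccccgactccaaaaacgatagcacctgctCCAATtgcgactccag

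ceh-48, IV:6814273-6814373, plus strand, pooled rank 17541: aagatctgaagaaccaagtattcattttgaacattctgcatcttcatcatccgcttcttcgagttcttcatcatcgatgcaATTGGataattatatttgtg

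ceh-49, V:6118627-6118727, minus strand, pooled rank 18270: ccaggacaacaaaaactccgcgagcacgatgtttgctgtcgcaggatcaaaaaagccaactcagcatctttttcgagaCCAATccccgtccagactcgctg

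No ceh gene had a peak in the final list, for which the authors set a threshold by irreproducible discovery rate. That list held 97 peaks, 71 of them nuclear and none below rank 97 of the pooled list, and 78 of the other genes, 0.392%, had one by the same assignment. For 62 genes, 0 with a final peak gave an exact Clopper-Pearson 95% interval of 0 to 5.78%, and the share of other genes lies within it. The interval covers the counting of genes only. The closest was ceh-79, whose best signal value of 36.8 was just under the lowest final nuclear value of 38.6. Measured along the chromosome, the final summit nearest to a ceh transcript start was 6255 bp from ceh-24, an NK-2 family gene known from vulval and pharyngeal muscle.

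Most ceh genes had a weaker peak. In the pooled list 45 of the 62 had at least 1 assigned peak, 72.6% (exact 95% interval 59.8 to 83.1), against 58.7% of other genes. The ceh genes were longer, with a median of 2735 bp against 2026 bp, and a long gene catches more peaks. Weighted to the lengths of the ceh genes over deciles of gene length, the share of other genes was 61.6%, and over the 50 genes nearest in length to each ceh gene it was 61.5%. Both values lie inside the interval of the ceh share, so the excess was not larger than the counting error of 62 genes. Per kb of gene and start window there were 0.348 assigned summits for the ceh genes and 0.329 for other genes. The excess over the weighted share, 11 percentage points in the pooled list, was 1.24 points in replicate 1, where 40 ceh genes, 64.5%, had a peak, against 60.2% of other genes and 63.3% after weighting by length. In replicate 2 there were 44, 71%, against 59.2% and 62.1%.

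A pooled peak seen in both replicates was present at 28 ceh genes, 45.2% (exact interval 32.5 to 58.3), against 37.6% of other genes and 40.3% after weighting by length. Each of the 3 lists had its own assigned peak for 38 ceh genes, 61.3% (48.1 to 73.4), against 47.2% of others and 50.9% after weighting. The weighted share lies inside that interval. Among high ranks the ceh share was no higher: 11 ceh genes, 17.7% (9.2 to 29.5), had a pooled peak of rank 5000 or better, against 18.7% of other genes and 20.2% after weighting. Only 2 ceh genes, 3.23%, had such a peak overlapped by one among the 5000 highest of each replicate, against 4.32% of other genes. One ceh gene, ceh-79, had a peak among the 1000 highest nuclear peaks, 1.61%, against 4.68% of other genes. The difference from the length-weighted share was 11 percentage points over all 30000 peaks and -2.48 points among the 5000 highest. At each depth the weighted share lies inside the exact interval of the ceh share. The change of sign is thus within the counting error of 62 genes.

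**Figure D1:**
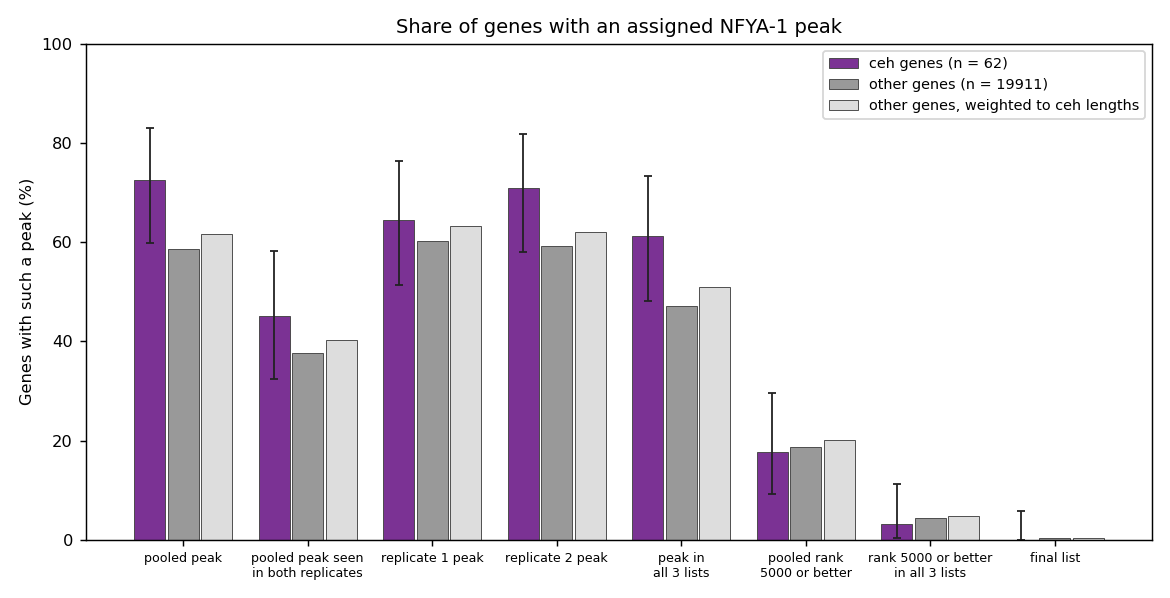
Share of genes, in percent, with an assigned peak under 8 rules, for the ceh genes (purple, with exact 95% intervals), for other nuclear protein-coding genes (grey) and for other genes weighted to the lengths of the ceh genes (light grey). The ceh share was 72.6% against 61.6% after weighting for any pooled peak, and 17.7% against 20.2% for a pooled peak of rank 5000 or better.

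Within the family, length went with support only in part. Below 2000 bp, 16 of 24 ceh genes had a pooled peak, 66.7% against 51.2% of other genes of that length, and 8 had one seen in both replicates, 33.3% against 28%. From 2000 to 4000 bp, 18 of 24 had a pooled peak, 75% against 62.2%, and 14 a supported one, 58.3% against 40.3%. At 4000 bp and above, 11 of 14 had a pooled peak, 78.6% against 70.9%, but 6 had a supported one, 42.9% against 55.5% of other genes. Among these long genes ceh-8, ceh-18, ceh-37, ceh-53 and ceh-91 had pooled peaks without support, and ceh-60, ceh-92 and ceh-93 had none. The longest, ceh-100 at 21503 bp, had 4 pooled peaks and 3 of them were seen in both replicates.

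The best pooled rank of the 45 ceh genes ran from 136 to 28660, with a median of 9624 against 9083 for other genes with a peak. In replicate 1 the median was 8988 against 9031, and in replicate 2 it was 11531.5 against 9103. The order of the genes changed between replicates. Of the 38 genes with a peak in both replicate lists, 23 had the better rank in replicate 1 and 15 in replicate 2. A peak in 1 replicate list but not the other was found for 8 more genes, 2 in replicate 1 and 6 in replicate 2. The 6 were ceh-31, ceh-37, ceh-54, ceh-57, ceh-84 and ceh-87, and the 2 were ceh-23 and ceh-74. These counts of rank order and of peaks in 1 replicate were not made for other genes. They are thus not shown to be particular to the ceh genes.

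**Figure D2:**
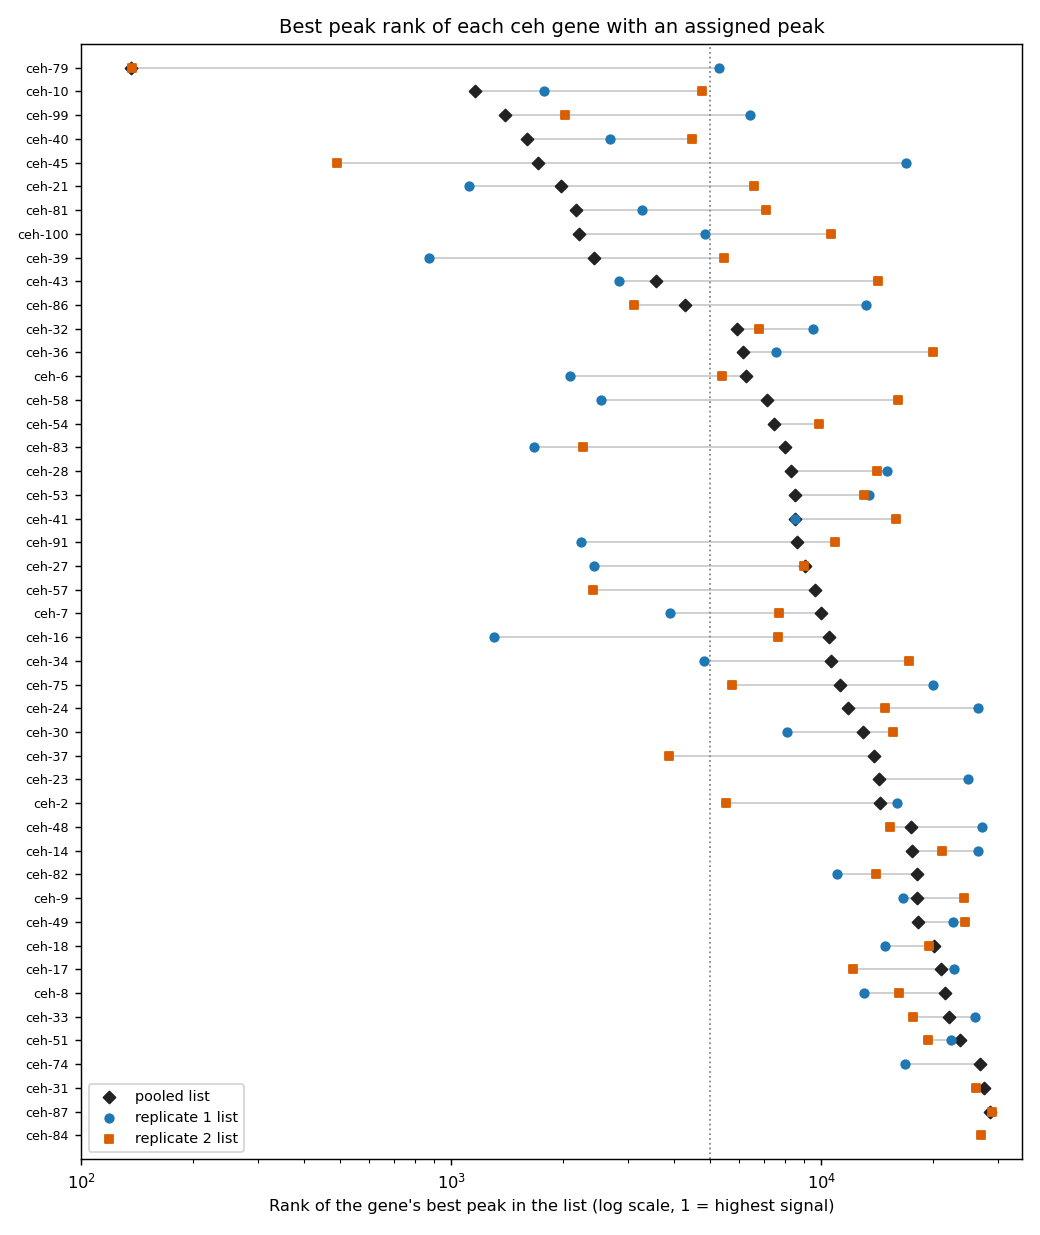
Rank of the best assigned peak of each of the 46 ceh genes with a peak in any list (log axis, 1 is the highest signal), in the pooled list (black diamonds), replicate 1 (blue circles) and replicate 2 (orange squares). The dotted line marks rank 5000, and grey lines join the lists of 1 gene; ceh-79 ranked 136 in the pooled list and 137 in replicate 2, but 5280 in replicate 1.

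The strongest ceh peak lay in ceh-79. It covered V:13304326-13304615 with a signal value of 36.8 in the pooled list, 9.97 in replicate 1 and 25.8 in replicate 2, and its ranks were 136, 5280 and 137. Replicate 1 thus placed far lower a peak that replicate 2 placed among its highest. The summit was in the last coding exon, 2638 bp downstream of the transcript start, and also in the start window of the neighbouring gene C26E1.2. Another 2 pooled peaks of ceh-79, at 369 bp upstream of the start (rank 3065) and in a coding exon (rank 13706), were overlapped in replicate 2 alone, at ranks 3045 and 2826.

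The gene ceh-10 had the best peak that both replicates ranked high. It encodes a paired-like homeodomain factor of the Chx10/Vsx group, known for its part in the AIY interneuron and the CAN neurons. The peak at III:5800717-5801006 had a signal value of 28.5 in the pooled list, 12.3 in replicate 1 and 15.4 in replicate 2, at ranks 1160, 1785 and 4755. Its summit was in the last coding exon, 1815 bp from the start. A second peak was in the first coding exon, 45 bp from the start, at ranks 10589, 7646 and 9083. Both summits lay in an intron of polq-1 and were assigned to that gene as well.

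At ceh-40 the best peak was at the promoter. This gene encodes a PBC class factor related to the vertebrate Pbx proteins, which are known as partners of Hox proteins. The peak at X:12320664-12320953 had its summit 32 bp upstream of the transcript start, with signal values of 27.3, 11.5 and 15.5 and ranks of 1605, 2690 and 4488 in the pooled list, replicate 1 and replicate 2. The start window of a neighbour, F17A2.13, also held this summit. The other PBC genes, ceh-20 and ceh-60, had no peak in any list; CEH-20 is known as a Hox partner, and CEH-60 for vitellogenin expression in the intestine.

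Another member with a high pooled rank, ceh-99, had its best peak in a coding exon 3379 bp from the start, at rank 1397 in the pooled list, 6440 in replicate 1 and 2030 in replicate 2, with signal values of 27.8, 9.53 and 17.9. At ceh-45, a goosecoid-related gene on chromosome I, the pooled peak of rank 1717 (signal value 27) lay in a coding exon and was seen in replicate 2 at rank 490 but not in replicate 1. A weaker peak of ceh-45, at rank 5969 in an untranslated exon, was seen in both, at ranks 16962 and 8767. The large gene ceh-100 had its best peak in a coding exon, 175 bp from the start, at ranks 2217, 4857 and 10661. Its other supported peaks were also in coding exons, at pooled ranks 8552 and 14168. At ceh-86 the best peak, in a coding exon, ranked 4272 in the pooled list, 15247 in replicate 1 and 3115 in replicate 2. It was the last of the 11 genes with a rank of 5000 or better; the next, ceh-32, had 5938.

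**Figure D3:**
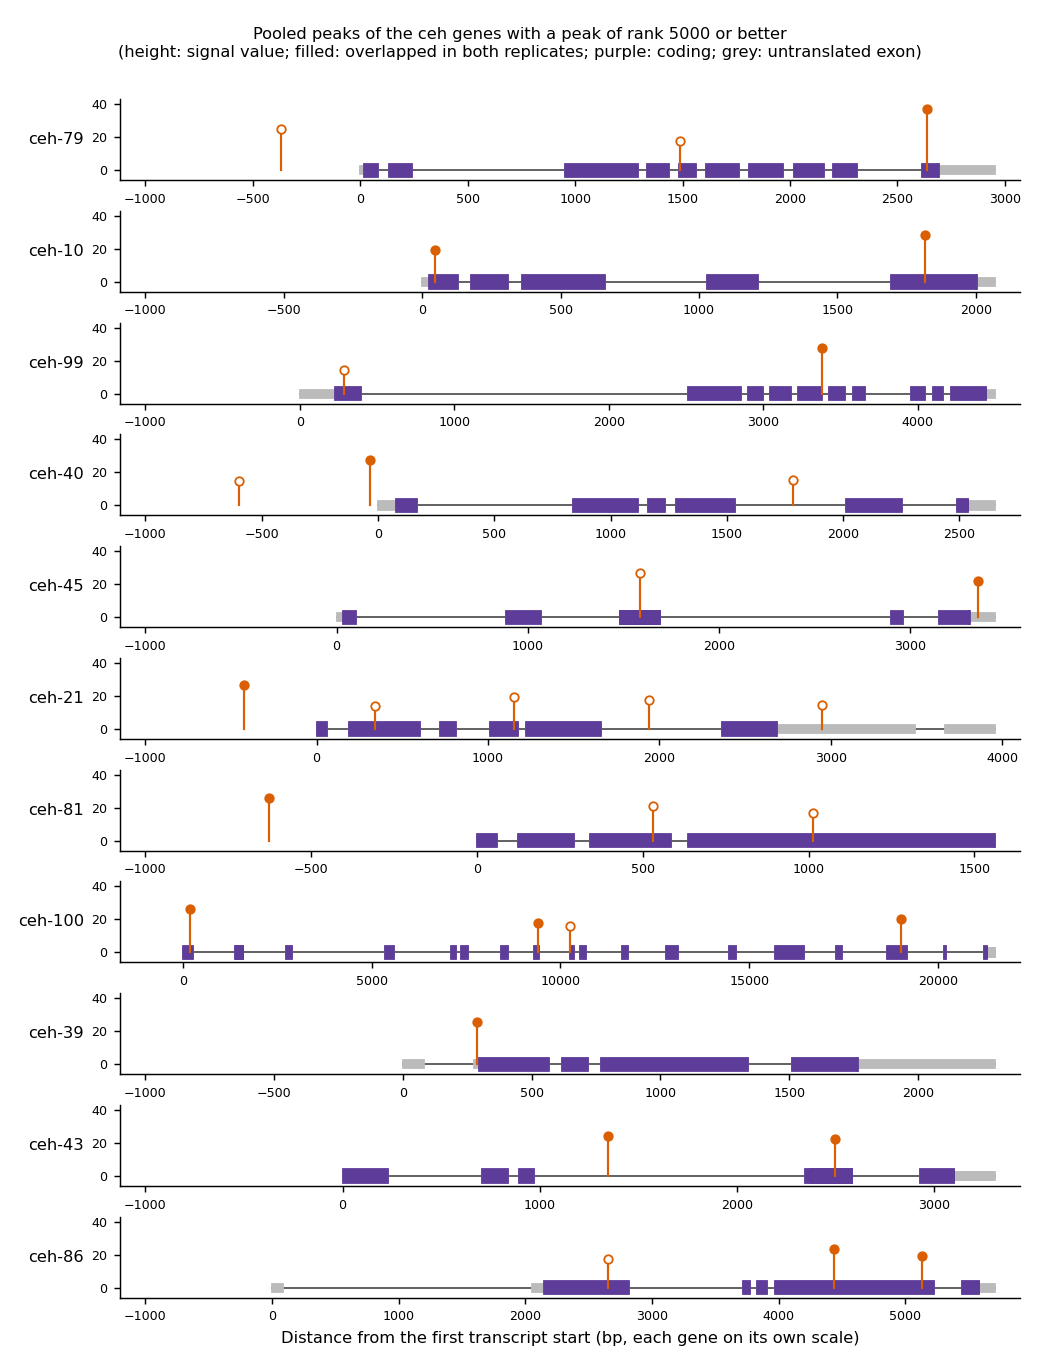
Pooled peaks of the 11 ceh genes with a peak of rank 5000 or better, by distance in bp from the first transcript start, each gene on its own scale. Stems reach to the signal value, filled heads mark peaks overlapped in both replicates, purple boxes are coding exons and grey boxes untranslated exons. The tallest is at ceh-79, at 36.8, and the best of ceh-40 lies 32 bp upstream of its start.

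Among CUT class genes, which carry a cut domain beside the homeodomain, 5 of 6 had a pooled peak and the same 5 had one seen in both replicates; ceh-38 had none. Over all other genes these shares were 58.7% and 37.6%, and the classes, of 1 to 21 genes and chosen by name, are too small to be set apart from them. In this class ceh-41, ceh-21 and ceh-39 are neighbours on chromosome X, with gaps of 103 and 1137 bp. ceh-39 is known as an X signal element, a gene whose dose counts X chromosomes in early sex determination. Its peak at X:1855739-1856028 was in an untranslated exon, 288 bp from the start, with signal values of 25.6, 13.8 and 15 and ranks of 2438, 872 and 5447. The best peak of ceh-21, at X:1853016-1853305, was 425 bp upstream of its start, at ranks 1979, 1119 and 6562, with its summit in a coding exon of T26C11.9. ceh-41 had 1 peak, in a coding exon, at ranks 8503, 8482 and 15891. In all 3 neighbours the peak ranked higher in replicate 1 than in replicate 2. The isolated genes of the class were weaker: ceh-48, known for expression across neurons, had its peak at pooled rank 17541 and ceh-49 at 18270, both in coding exons with CCAAT (sequences above).

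All 8 ceh genes of the paired-like class had a pooled peak, beside 58.7% of other genes. In 4 of them, ceh-10, ceh-17, ceh-36 and ceh-45, one was seen in both replicates, beside 37.6% of other genes. The median length in this class was 3394 bp, against 2026 bp for other genes. ceh-36, an Otx-related gene known from the AWC and ASE sensory neurons, had its peak in an untranslated exon at ranks 6163, 7529 and 20050. Its neighbour ceh-37, also Otx-related and known from the AWB neurons, had 2 intronic peaks at pooled ranks 13888 and 24979, both absent from replicate 1. ceh-54 likewise had a peak, 817 bp upstream of the start at pooled rank 7451, in replicate 2 alone, at 9844. At ceh-53 the best peak was intronic, at pooled rank 8481 and replicate 2 rank 13028, with no overlapping peak in replicate 1. ceh-17, a Phox2-related gene of the ALA and SIA neurons, had a supported coding exon peak at ranks 21132, 22905 and 23707, low in every list. ceh-8 had 3 pooled peaks, the best at 21591, and none was seen in both replicates.

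Each of the 3 ceh genes of the sine oculis family had a supported peak, beside 37.6% of other genes. Their median length was 3637 bp. ceh-32, known in head development, had 3: in a coding exon 167 bp from the start at ranks 5938, 14483 and 6802, in an intron at pooled rank 15543, and in a coding exon at 25571. ceh-34, known for the identity of pharyngeal neurons, had its supported peak in a coding exon at ranks 10659, 18557 and 18010. At ceh-33 it was intronic and ranked 28677, near the end of the pooled list. Of the POU class, ceh-6, known in the excretory canal cell, had 5 pooled peaks; the best, in a coding exon, was at ranks 6266, 2088 and 5391. The other ceh gene of the POU class was ceh-18, known for sheath cell signals that control oocyte maturation. Its 3 peaks were intronic at pooled ranks of 20174 and below, and none was seen in both replicates. The LIM class gene ceh-14, known in the AFD thermosensory neuron, had its best peak at ranks 17650, 26605 and 24170.

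Among 18 ceh genes of the NK and related class, 11 had a pooled peak and 7 a supported one. These shares, 61.1% and 38.9%, were close to the 58.7% and 37.6% of other genes. The highest was at ceh-43, the Distal-less gene known for dopaminergic neurons, with an intronic peak at ranks 3569, 2834 and 17613 and a coding exon peak at 5716, 4505 and 14248. Its intronic peak had signal values of 24.1, 11.4 and 11.1. ceh-27 had a coding exon peak at ranks 9048, 2432 and 16310, and ceh-28, known in the M4 pharyngeal neuron, one at 8287, 20691 and 14121. At ceh-7 the peak was 180 bp upstream of the start, at 10019, 3908 and 7687, and in the start window of prx-5 as well. ceh-16, the engrailed gene known from seam cells, had an intronic peak at 15130 that ranked 1308 in replicate 1 and 28753 in replicate 2. The 7 without a pooled peak were ceh-1, ceh-5, ceh-12, ceh-19, ceh-22, ceh-62 and ceh-63, and they had none in the replicate lists. ceh-22 is the NK-2 gene of pharyngeal muscle and ceh-12 the Hb9-related gene of motor neurons.

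The remaining 21 genes, for which no class was listed, included 14 with a pooled peak, 66.7% against 58.7% of other genes, and 6 with a supported one, 28.6% against 37.6%. Besides ceh-79, ceh-86, ceh-99 and ceh-100 the supported ones were ceh-58 and ceh-81. ceh-58 had a coding exon peak at ranks 7151, 2544 and 16125, while its neighbour ceh-57, 444 bp away, had an intronic one at pooled rank 9624 and replicate 2 rank 2416 with nothing overlapping in replicate 1. ceh-81, ceh-82 and ceh-83 lie side by side on chromosome II. The best peak there, at ranks 2167, 3269 and 7082, was 628 bp upstream of ceh-81 with its summit in a coding exon of btb-9. At ceh-83 the replicates' best ranks, 1677 and 2268, came from different places: a coding exon in replicate 1 and 261 bp upstream of the start in replicate 2, and none of its 4 pooled peaks was seen in both. ceh-91 was alike, with coding exon peaks at pooled rank 8576, overlapped in replicate 2 alone, and at 9696, overlapped in replicate 1 alone.

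In all, 17 ceh genes had no pooled peak, and 16 of these had no peak in any list; ceh-84 had 1 in replicate 2, at rank 27121. The 17 had a median length of 2450 bp, against 2818 bp for the 45 with a peak. A list of 40 further homeobox genes, ceh-13 and others not named ceh, had a pooled peak at 28 (70%) and a supported one at 23 (57.5%), against 72.6% and 45.2% of the ceh genes. They were longer, with a median of 4680 bp against 2735 bp, and their shares were not weighted by length. Of the 6 Hox genes among them php-3 had a pooled peak and ceh-13, lin-39, mab-5, egl-5 and nob-1 had none, where 58.7% of genes outside the ceh family had one.

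The 45 genes held 97 assigned summits of 96 distinct peaks, of which 1 was shared by ceh-81 and ceh-82. Support of the peaks followed their rank. Of 12 ceh peaks in ranks 1 to 5000, 10 were seen in both replicates, 83.3%, against 86.5% of peaks at other genes. From there to rank 10000 it was 11 of 18 (61.1% against 66.7%), on to rank 20000 it was 13 of 32 (40.6% against 39.6%), and for the rest 3 of 34 (8.82% against 17%). Over all ranks 37 of 96 ceh peaks were seen in both replicates, 38.5%, against 45.3% at other genes. A further 37 were overlapped in replicate 2 alone, 38.5% against 31.9% at other genes, 19 in replicate 1 alone, 19.8% against 18.3%, and 3 in neither, 3.12% against 4.61%. Of the 37 supported peaks, 12 had ranks more than 3 times apart between the replicates. That count was not made for peaks at other genes, so it is not shown to be particular to ceh peaks.

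**Figure D4:**
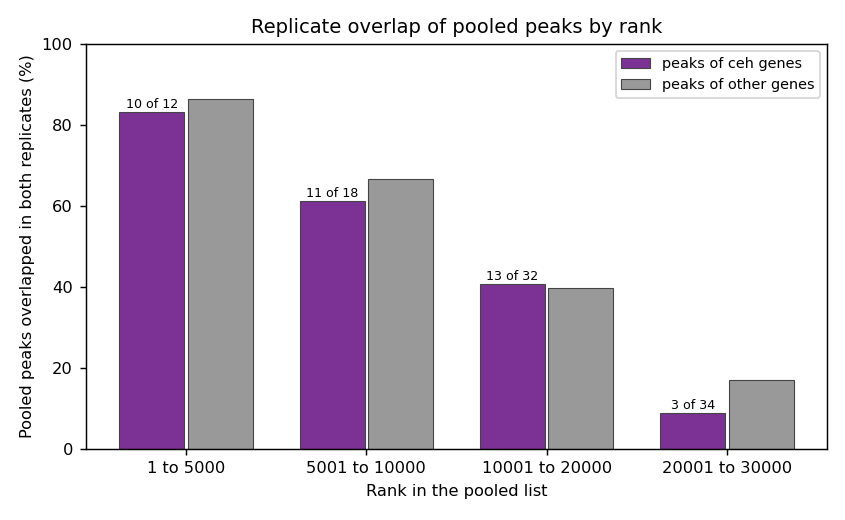
Share of pooled peaks, in percent, that a peak of each replicate overlapped, by rank in the pooled list, for peaks assigned to ceh genes (purple, with counts above the bars) and to other genes (grey). The share fell from 83.3% to 8.82% for ceh genes and from 86.5% to 17% for other genes.

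Summits of ceh genes lay more often in coding exons than the bases of these genes do. Of the 97 summits 45 were in a coding exon of the ceh gene, 46.4%, while coding exons made up 22.2% of the bases searched. At other genes the shares were 50.7% of summits and 29.4% of bases. Introns held 26 summits, 26.8%, and 47.5% of bases, against 25.5% and 41% at other genes. Upstream of a start lay 20 summits, 20.6%, and 22.2% of bases, against 19.6% and 23.7% at other genes. Untranslated exons held 6 summits, 6.19%, and 8.02% of bases, against 4.2% and 6.02% at other genes. The coding share was 47.1% in replicate 1 and 45.8% in replicate 2. Among the 37 summits seen in both replicates, 22 were in coding exons, 59.5%, against 55% at other genes. The median GC content of the 101 bp around the summit was 42.6% for coding exon summits of both ceh and other genes, and 37.1% against 36.6% for intronic ones; its part in the location of peaks was not tested. Of the 97, 10 summits lay inside another protein-coding gene, among them both of ceh-10, both of ceh-51 (in an intron of emb-4) and the best of ceh-21 and ceh-81. Summits of other genes were not counted in this way.

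**Figure D5:**
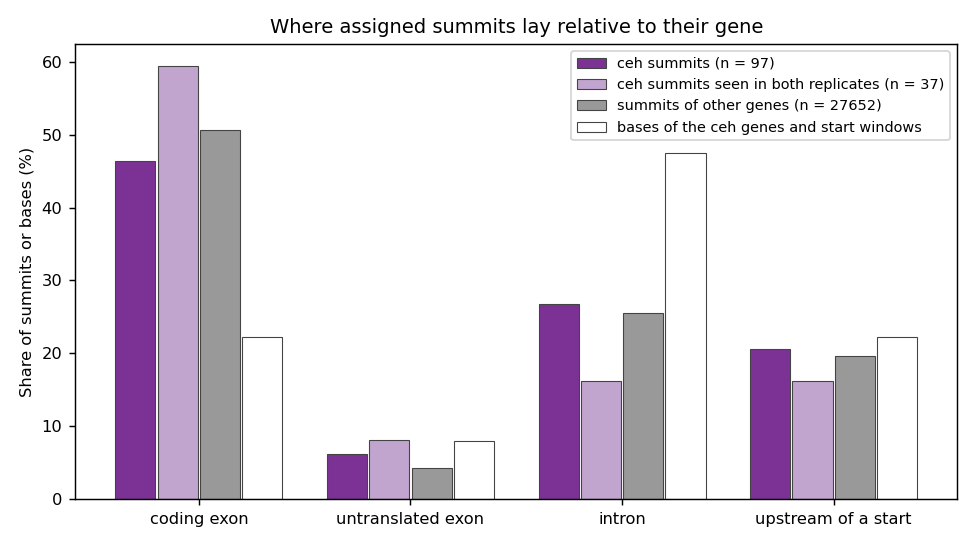
Location of assigned pooled summits relative to their gene, as a share in percent, for all 97 summits of ceh genes, for the 37 seen in both replicates and for other genes, beside the share of bases of ceh genes and start windows in each class (white). Coding exons held 46.4% of ceh summits and 22.2% of bases.

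Coding summits could be set beside the homeobox codons in some of the genes. The recognition helix was located by its signature of tryptophan, phenylalanine, any residue, asparagine, any residue and arginine, which was found once in the annotated coding sequence of 39 ceh genes and in none of the other 23, all 6 CUT genes among them, which therefore have no position here. Of the 23 coding summits in those 39 genes, 3 lay within 150 bp of the asparagine codon, 13%, while 20.8% of their coding bases did; with 23 summits these shares cannot be told apart. The 3 were in ceh-43 (109 bp), ceh-23 (110 bp) and ceh-17 (108 bp). The median distance was 781 bp of genome, introns included. This count was added after the locations had been seen.

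CCAAT was about as frequent at ceh summits as at others in the narrow window. In a wider one its share was lower, by a margin close to the counting error. It lay on either strand within 50 bp of 20 of the 96 ceh summits, 20.8% (exact interval 13.2 to 30.3), against 22.2% at other genes and 21.7% of all 29974 nuclear pooled peaks. Within 100 bp it was found at 28 ceh summits, 29.2% (20.3 to 39.3), against 39.4% at other genes and 38.6% of all nuclear pooled peaks. The share at other genes lies just outside the interval and that of all nuclear peaks inside it. The interval takes the 96 summits as independent, though many ceh genes held more than 1, so it can be too narrow. The ceh summits seen in both replicates had it within 100 bp at 14 of 37, 37.8%. Within 50 bp, among the 37 summits seen in both replicates 6 had it, 16.2%. CCAAT was not counted at the supported summits of other genes, so the shares of supported ceh summits have no like value beside them. By location it was present at 13 of 45 coding exon summits (28.9% against 24.2% at other genes), 6 of 26 intronic ones (23.1% against 19.6%), 1 of 20 upstream ones (5% against 20.7%) and 0 of 6 in untranslated exons (against 21.3%). The nearest CCAAT to the ceh-79 summit was 99 bp away, to that of ceh-40 64 bp and to that of ceh-10 219 bp. In the promoters themselves, taken as 250 bp before to 50 bp after the first transcript start, CCAAT was found on either strand in 31 of 62 ceh genes, 50%, against 45.5% of other genes. It was in 16 of the 28 promoters of ceh genes with a supported peak and in 15 of the other 34.

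By chromosome, ceh genes with a pooled peak numbered 6 of 8 on I, 10 of 13 on II, 5 of 7 on III, 2 of 4 on IV, 10 of 12 on V and 12 of 18 on X. The X chromosome carried the most ceh genes, and its share of 66.7% compared with 58.8% of other genes there. The share was above that of other genes on 5 of the 6 chromosomes, IV being the exception at 50% against 58%. The supported share was above that of other genes on 4 chromosomes, at 46.2% against 38.4% on II, 42.9% against 35.2% on III, 58.3% against 38.6% on V and 44.4% against 35.8% on X. It was below on I, at 37.5% against 38.7%, and on IV, at 25% against 37.7%. With 4 to 18 ceh genes on a chromosome, 1 gene moves these shares by several points. The shares of other genes by chromosome were not weighted by length, and the ceh genes were longer.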

How the data were processed

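The deposited lists are the authors' own. Per the deposited file descriptions, peaks were called for each replicate and for both pooled, from alignments on builds ce11 and ce10 and a further file shared by the replicates, from which the control-normalized tracks were also made; no aligner, caller or version was found in the labels or headers. Each peak carries a signal value made by the authors, whose scale is not given. Read depth is unknown. The ce10 lists were not used, and no build was converted. Build ce11 is the WBcel235 assembly, and genes, exons and starts came from Ensembl release 115 for it.

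Members and lists were chosen with earlier results of these data known. The symbol ceh-44 is not in that annotation. With 1 group of 2 replicates there is no test across samples, and the ceh genes are described by counts beside all other genes, with exact Clopper-Pearson 95% intervals that cover counting only. Location was set by the assigned gene in the order coding exon, untranslated exon, intron, upstream. Other genes were weighted to the ceh genes over 10 strata of length. Homeobox classes came from textbook knowledge and held ceh genes only, since homeobox genes with other names were not put in a class. The homeobox count was added after locations were seen. Genes named by rule were the 25 best ranked, those with a best peak in the 5000 highest of both replicates, those with 3 supported peaks and the 3 best of each class; genes without a pooled peak, and others named singly, were chosen after values were seen. The assignment was tested on simulated peaks. Python 3.11.15, numpy 2.4.6, scipy 1.17.1 and matplotlib 3.10.9 were used.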

Additional observations from a re-analysis of the deposited data

How the results depend on the processing

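Of 47 recomputed values, 26 kept close to the main one, 20 moved and 1 reversed. The number of ceh genes with a pooled peak was 23 among the 10000 highest peaks and 11 among the 5000 highest, because fewer peaks were kept. Those with support in both replicates numbered 8 and 2, with the replicate lists shortened alike. In the full replicate lists, 10 of the 12 ceh peaks of pooled rank 5000 or better were seen in both. The median best rank was 7684 with 2000 bp upstream, and 5938 and 1979 in the same shortened lists. The share of coding exon summits was 51.7% with 500 bp upstream, 35.7% with 2000 bp, 41.7% by overlap of whole peaks, 60% and 50% in the shortened lists, 50.5% by the exons of any gene, and 49.4% without summits inside another gene, a setting chosen after seeing the data. The excess over the length-weighted share, 11 points, was 3.24 among the 10000 highest peaks and reversed to -2.48 among the 5000 highest. At 11 and at -2.48 points the weighted share lies inside the exact interval of the ceh share. The cause was not tested. CCAAT within 100 bp was found at 29.2% of ceh summits. Among the 1000 highest nuclear peaks 1 ceh gene had a peak. With either replicate left out, the number of ceh genes with a peak was 40 to 44, the median best rank 8988 to 11531.5, the coding share 45.8% to 47.1%, the excess 1.24 to 8.9 points and CCAAT 16.8% to 21.7%; 1.24 is the value without replicate 2. Support in both replicates has no value with 1 left out. No paired analysis was possible because both replicates belong to 1 group. Unknown depth limits every statement on a gene without a peak.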
